A study of Mus musculus with 5 samples.

Results

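Contractile smooth muscle cells of the neonatal mouse penis were described here from single-cell RNA counts. A cell was a member when it carried at least 2 UMIs (unique molecular identifiers, each a tagged RNA molecule) of Acta2 and at least 1 UMI of 2 or more of Myh11, Cnn1 and Actg2, so the members were chosen by their own RNA of these 4 genes. Of 19581 kept penis cells, 261 were members, 101 in replicate 1, 83 in replicate 2 and 77 in replicate 3. That is 1.49, 1.17 and 1.35% of the kept cells, with exact (Clopper-Pearson) 95% intervals of 1.21 to 1.81%, 0.934 to 1.45% and 1.07 to 1.68% that cover counting error only, and a mean of 1.34% ± 0.159 (SD, n = 3 libraries).

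The series holds 3 libraries of penis from postnatal day 6, and 1 library each of forelimb and hindlimb from embryonic day 15. All animals were male mice labelled as genotype C57BL/6N, whereas the study's methods give C57BL/6J, and no transgene or treatment is given. The penises came from 3 males of 2 litters, with the prepuce removed so that mainly the glans was kept, and the limbs came from male embryos whose number in each library is not stated. The study asked how gene expression differs between the penis, whose bone is just starting to form at this age, and the limbs at a like stage of bone formation.

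Smooth muscle contracts when calcium entering through channels or released from stores activates myosin light-chain kinase, and relaxes when myosin phosphatase removes the phosphate again. In the penis the tone of smooth muscle in the arteries and in the erectile tissue holds the organ flaccid under noradrenaline and endothelin, and nitric oxide, acting through guanylyl cyclase and cyclic GMP, relaxes it and lets blood in. Vascular smooth muscle cells and pericytes, the mural cells of small vessels, form a continuum and share many genes.

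Kept cells per penis library numbered 5708 to 7085 with 51529854 to 68417925 UMIs in all, and 9 to 19 barcodes were shared by any 2 penis libraries. Members held a median of 10783, 10575 and 9041 UMIs per cell in replicates 1 to 3, against 9896, 9338.5 and 8791 in all other kept penis cells. Summed over cells, the members gave 1192525, 936983 and 754573 UMIs. Levels below are CPM, a gene's UMIs divided by all UMIs of the summed cells of a library and scaled to 1000000, and differences between sets are log2 fold changes with their standard errors (SE) from edgeR's quasi-likelihood test on the summed counts, with Benjamini-Hochberg adjustment over all genes tested. A gene was called when its adjusted p was under 0.01 and its log2 fold change was over 1 in size.

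The 4 genes of the rule are given as a description with no test. Acta2 (chr19:34241090-34255590, minus strand, GRCm38) encodes smooth muscle alpha-actin, and stood at 5613, 5511 and 6630.2 CPM in the members of replicates 1, 2 and 3, against 31.2, 33.1 and 31.9 in the other cells. Myh11 (chr16:14194535-14291372, minus strand), the smooth muscle myosin heavy chain, stood at 1221, 1585 and 1596 against 16.9, 16.9 and 18.1. Cnn1 (chr9:22099216-22109630, plus strand), the actin-binding calponin, stood at 331, 363 and 307 against 2.56, 2.37 and 2.28, and Actg2 (chr6:83512905-83536265, minus strand), smooth muscle gamma-actin, at 558, 587 and 586 against 1.68, 1.99 and 1.87. Acta2 and Actg2 encode near-identical proteins, and how reads that fit both genes were counted is not stated. The median member carried 42, 31 and 42 UMIs of Acta2 in the 3 libraries, with a range of 2 to 503 over all members. Of the 261 members, 254 had a UMI of Myh11, 238 of Actg2 and 147 of Cnn1, and 117 had all 3.

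Just inside the limit, 14 members carried 2 to 4 UMIs of Acta2 and the other 247 carried 5 or more. Just outside it, 230 cells had 2 or more UMIs of Acta2 and a UMI of only 1 other gene of the rule, 487 had no other, and 7 had 1 UMI of Acta2 with 2 or more others. Transgelin (Tagln), which the rule did not use, was at 2875, 3435 and 3421 CPM in the 247 members, 1295, 358 and 368 in the 14, 739, 815 and 652 in the 230 and 208, 234 and 325 in the 487. The cells just outside also held more RNA of Dcn, a fibroblast proteoglycan, at 2999, 2840.3 and 2785 in the 487 against 863, 572 and 479 in the 247. The 14 cells nearest the limit are few, and their levels differed widely between libraries.

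Other cell types were looked for among the members through pairs of marker genes. Both Pdgfra and Dcn had a UMI in 35 members, both Pecam1 and Cdh5 (endothelium) in 9, both Krt5 and Krt14 (keratinocytes) in 3, and both Ptprc and Tyrobp (white blood cells) in 1. In the other direction, 1 of 564 penis cells with the white blood cell pair passed the rule, which is 0.177%. The endothelial list of 8 genes summed to 180.3 to 320.2 CPM in the members and 449 to 492 in the other cells, and the keratinocyte list to 126 to 147 against 862 to 954. Globin and other red blood cell RNA was very uneven between libraries, at 1834 to 12908 in the members and 4538 to 5793 in the other cells. Early response genes that dissociation can raise summed to 6281 to 7317 CPM in the members and 5713 to 5851 in the other cells, and 3 of these 14 genes were called higher in the comparison that follows; their part in other results was not tested.

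The first comparison set the members against all other kept penis cells of the same library, with the library as a block and the 4 rule genes left out. The cells were picked on the RNA of 4 genes, so genes whose RNA lies in the same cells differ in part through that choice. The members had 668 genes called higher of 18393 tested (3.63%) and 963 called lower (5.24%), with a median log2 fold change of -0.12 over all genes, while DESeq2 called 632 lower. Most contractile and cytoskeletal genes were called higher, and most genes of the fibroblast, keratinocyte and white blood cell lists were called lower.

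Of 20 contractile and cytoskeletal genes beside the rule genes, 19 were called higher and 0 lower, with a median log2 fold change of 2.61. Tagln, an actin-binding protein, stood at 2843, 3270.1 and 3366 CPM in the members of replicates 1 to 3 and 63, 63.1 and 62.8 in the other cells, a log2 fold change of 5.73 ± 0.06 (SE, adjusted p = 5.01e-39). Lmod1 (leiomodin, which seeds actin filaments) stood at 318, 306 and 349.9 against 9.61, 9.67 and 10.2, a log2 fold change of 5.13 ± 0.09 (adjusted p = 5.60e-32). For Myl9, the regulatory light chain of myosin, the values were 1846, 1707 and 1883 against 108, 93.5 and 93.6, with a log2 fold change of 4.29 ± 0.07 (adjusted p = 1.47e-34). For each of these genes every member value lay above every value of the other cells. Mylk, the kinase that phosphorylates this light chain, rose by 3.78 ± 0.07 on the log2 scale, tropomyosins Tpm2 and Tpm1 by 3.82 ± 0.06 and 3.103 ± 0.06, and the Z-disc and actin-bundling genes Synpo2 and Nexn by 3.86 ± 0.10 and 3.17 ± 0.10. Caldesmon (Cald1), smoothelin (Smtn) and the intermediate filament desmin (Des) rose by 2.60 ± 0.06, 1.57 ± 0.15 and 1.87 ± 0.10. The gene of the list that was not called was Pdlim3, at 470.4, 402 and 388 against 259, 249 and 237 and a log2 fold change of 0.84 ± 0.07, under the size limit.

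Serum response factor, with its coactivator myocardin, drives many contractile genes through the CArG box, an element of 10 bases whose core holds A and T only and which reads the same on both strands up to the order of A and T. The box was searched on both strands in the 250 bases before each gene's start in RefSeq promoters of GRCm38.p6, where 439 of 27025 genes (1.62%) held it. Of the 20 contractile and cytoskeletal genes, 17 had a promoter in the table and 3 held the box. Of the 4 rule genes, Acta2 and Cnn1 had a promoter there, and no box of this exact form was found in those windows. The search could not find boxes with another base in the core, so it does not show that these promoters lack such elements. The matches are shown with 20 bases on either side, 5′ to 3′ on the gene's strand and with the box in capitals, because the contractile genes were the list with the most calls and this element is the best known one of such genes. A match is a description and not a bound site.
Myl9, chr2:156775283-156775332, plus strand, box starting 161 bases before the start: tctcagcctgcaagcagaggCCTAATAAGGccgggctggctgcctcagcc
Vcl, chr14:20929151-20929200, plus strand, box starting 227 bases before the start: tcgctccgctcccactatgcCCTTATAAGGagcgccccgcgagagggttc
Ldb3, chr14:34588687-34588736, minus strand, box starting 35 bases before the start: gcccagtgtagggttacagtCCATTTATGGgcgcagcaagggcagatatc

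Of 17 smooth muscle transcription genes tested, 6 were called higher and 0 lower (median 0.82). Myocd, the myocardin gene, was at 180.3, 206 and 184 CPM in the members and 4.66, 3.75 and 4.04 in the other cells, a log2 fold change of 5.60 ± 0.14 (adjusted p = 2.58e-28). Its partner Srf was far closer between the sets, at 12.6, 21.3 and 15.9 against 7.99, 7.72 and 7.74 and a log2 fold change of 1.15 ± 0.30 (adjusted p = 0.00389), and it was no longer called without replicate 2 (0.90), without replicate 3 (1.15) or under a stricter rule for members (1.44). Heyl, a target of Notch, rose by 3.85 ± 0.23 and Mef2c by 1.53 ± 0.09. The related coactivator gene Mrtfa had a log2 fold change of 0.82 ± 0.11 and was not called.

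**Figure D1:**
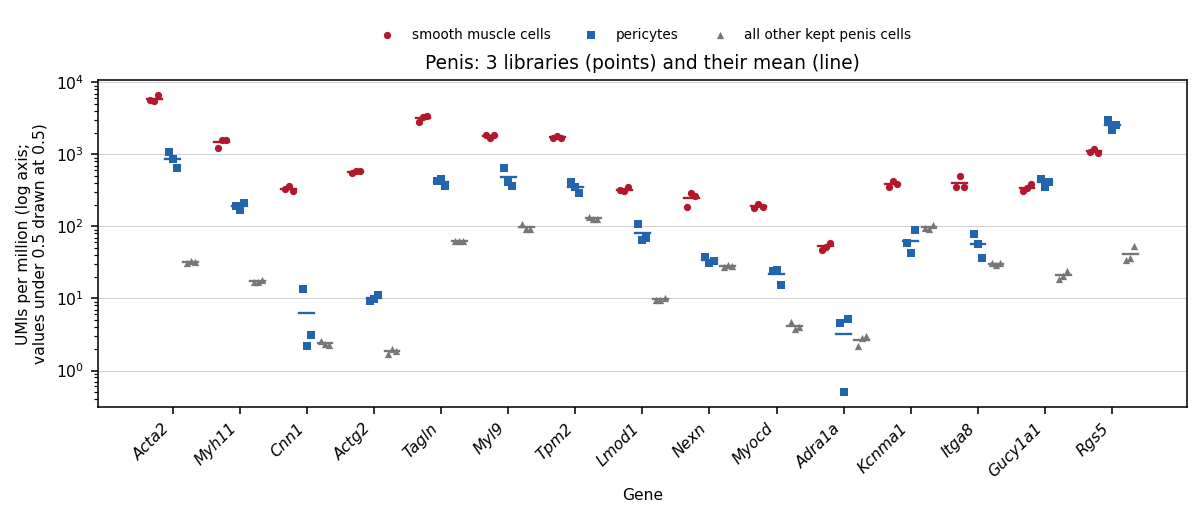
CPM (log axis) of 15 genes in smooth muscle cells (circles), pericytes (squares) and all other kept penis cells (triangles), each point 1 of 3 libraries and each line their mean. Tagln stood at 2843 to 3366 in smooth muscle cells, 364 to 453 in pericytes and 62.8 to 63.1 in the other cells, and Gucy1a1 at 313 to 384, 357 to 460 and 18.4 to 23.9. Values under 0.5 are drawn at 0.5, and Acta2, Myh11, Cnn1 and Actg2 chose the smooth muscle cells and Rgs5 the pericytes.

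The relaxation genes covered nitric oxide, cyclic GMP and cyclic AMP, and of 20 tested 10 were called higher and 2 lower (median 1.07). Guanylyl cyclase, the receptor of nitric oxide, is built from an alpha and a beta subunit. Its alpha subunit gene Gucy1a1 stood at 313, 337 and 384 against 18.4, 20.3 and 23.9 (log2 fold change 4.13 ± 0.09, adjusted p = 2.73e-30), and its beta subunit gene Gucy1b1 at 155, 162 and 168 against 10.8, 11 and 12.8 (3.90 ± 0.12, adjusted p = 1.03e-24). The second alpha subunit gene, Gucy1a2, rose by 3.04 ± 0.10. Downstream, the cyclic GMP-dependent kinase Prkg1 rose by 2.05 ± 0.06, its substrate at the calcium store, Mrvi1 (now Irag1), by 4.50 ± 0.15, and Ppp1r12a, the targeting subunit of myosin phosphatase, by 1.68 ± 0.07. The phosphodiesterase Pde3a rose by 2.27 ± 0.08. Pde5a, which breaks down cyclic GMP and is the target of sildenafil, was at 211, 227 and 189.5 against 116, 114 and 118, and its log2 fold change of 0.94 ± 0.09 (adjusted p = 3.32e-11) fell under the size limit, which it passed narrowly without replicate 3 (1.001).

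Of 22 genes for contractile receptors and the kinases and phosphatase regulators below them, 9 were called higher and 1 lower (median 0.89). Adra1a, the alpha-1A adrenoceptor through which noradrenaline contracts smooth muscle, stood at 47.8, 52.3 and 59.6 against 2.19, 2.8 and 2.99, a log2 fold change of 4.41 ± 0.29 (adjusted p = 2.15e-15). P2rx1, a channel opened by ATP from nerves, was at 14.3, 23.5 and 45.1 against 0.283, 0.387 and 0.492 (6.13 ± 0.47), and its 73 UMIs in all members were spread unevenly, with the highest level in replicate 3. Adra2a rose by 2.66 ± 0.13, the endothelin receptor Ednra by 1.70 ± 0.10 and Ppp1r14a, an inhibitor of myosin phosphatase, by 2.81 ± 0.09. Rhoa did not pass the test (0.08 ± 0.07), nor did Rock1 pass the size limit (0.90 ± 0.08). The muscarinic receptors parted: Chrm2 had 2 UMIs in all members and was 38.3 (95% counting interval 10.6 to 317) times higher in the other cells, and Chrm3 was at 21.8, 68.3 and 57 against 63.1, 59 and 76.2, with overlapping sets.

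Of 27 genes of calcium handling, channels and junctions, 14 were called higher and 1 lower (median 1.36). Kcnma1, the pore of the large-conductance potassium channel that limits contraction, stood at 357, 427 and 387 against 96.6, 92.5 and 104, a log2 fold change of 2.08 ± 0.08 (adjusted p = 4.45e-22). Its beta subunit Kcnmb1 was scarce, with 23 UMIs in all members, and rose by 4.68 ± 0.68. Cacnb2, a subunit of voltage-gated calcium channels, rose by 2.16 ± 0.08, whereas the pore gene Cacna1c was at 505, 495 and 526 against 605, 552 and 626 and did not pass. The chloride channel Ano1 rose by 2.14 ± 0.10, the ryanodine receptor Ryr3 by 2.04 ± 0.12 and the cation channel Trpc6 by 2.28 ± 0.22. Gja1 (connexin 43) fell by 2.04 ± 0.18 on the log2 scale.

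Among genes outside the lists, Kcnk3 (chr5:30588170-30625271), a background potassium channel, stood apart at 152, 158 and 154 CPM in the members and 1.5, 1.62 and 1.63 in the other cells, a log2 fold change of 6.69 ± 0.17 (adjusted p = 5.56e-28). The other 7 that the naming rule picked were Fbxl22 (5.68 ± 0.16), Sh3bgr (5.14 ± 0.29), Sytl2 (4.78 ± 0.28), the intermediate filament gene Prph (4.69 ± 0.28), Mustn1 (4.65 ± 0.09), the amine oxidase gene Aoc3 (4.50 ± 0.15) and Pcp4, a regulator of calmodulin (4.44 ± 0.11).

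Of 20 genes of integrins and the dystrophin complex, which tie the contractile cell to its matrix, 8 were called higher and 0 lower. Itga8 was at 353, 502 and 349.9 against 30.7, 29 and 31.3 (log2 fold change 3.80 ± 0.10), Itga7 rose by 3.50 ± 0.23, Itga1 by 2.97 ± 0.08 and dystrophin (Dmd) by 3.14 ± 0.08. In replicate 2, 1 cell held 26.0% of the members' Itga8 UMIs, against 12.8% and 12.5% for the top cell of replicates 1 and 3. Of 17 basement membrane genes 6 were called higher and 2 lower: type IV collagen genes Col4a1 and Col4a2 rose by 1.84 ± 0.06 and 1.86 ± 0.06 and Lama5 by 2.98 ± 0.21, and Lama2 fell by 2.08 ± 0.10. Of 23 genes of elastic fibres and fibrillar matrix, 0 were called higher and 9 lower, among them Dcn (-2.22 ± 0.08), Fbln2 (-2.11 ± 0.09) and Lum (-1.99 ± 0.11). Elastin (Eln) was at 805, 910.4 and 966 in the members and 1262, 1209 and 1199 in the other cells, a log2 fold change of -0.37 ± 0.06 that did not reach the size limit.

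The mural list of 14 genes had 13 called higher and 0 lower (median 2.55). Rgs5, which curbs G protein signals and marks pericytes, was at 1086, 1177 and 1052 against 34.1, 36 and 54.2 (4.85 ± 0.10, adjusted p = 6.49e-31). The potassium channel pair of mural cells, Kcnj8 and Abcc9, rose by 3.64 ± 0.15 and 2.61 ± 0.12, Notch3 by 2.96 ± 0.08, Mcam by 3.00 ± 0.10 and the PDGF receptor Pdgfrb by 2.02 ± 0.09. In the list of Notch, PDGF, TGF-beta and Hedgehog genes, 3 of 20 were called higher, among them the Notch ligand Jag1 (1.39 ± 0.11) and Tgfb1i1 (2.13 ± 0.10), and 2 lower, among them Pdgfra (-2.45 ± 0.15). Of the steroid receptor and enzyme list, 1 of 10 was called higher, the mineralocorticoid receptor Nr3c2 (1.10), and 2 lower, the estrogen receptor Esr1 (-1.56 ± 0.15) and Fkbp5 (-2.02 ± 0.20).

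Among lists of other cell types, some were mostly lower in the members and others were not. The fibroblast list had 8 of 10 genes called lower, the keratinocyte list 8 of 8, the white blood cell list 7 of 8 and the endothelial list 3 of 8, with 0 called higher in each. Examples were Pi16 (-4.19 ± 0.35), Krt5 (-3.70 ± 0.19) and Lyz2 (-4.71 ± 0.19). Of 10 cartilage and bone genes, 6 were called lower, and Acan, the proteoglycan aggrecan of cartilage, was higher at 111, 144 and 174 against 21.9, 28.9 and 24.2 (2.58 ± 0.12). The red blood cell list had a median log2 fold change of 0.48 over 6 genes, with the uneven levels given above. The skeletal muscle list summed to 68.9 to 114 CPM in the members and 11.7 to 12 in the other cells, with 2 of 6 genes tested called higher. One was Ckm, a muscle creatine kinase (2.28), which was not called by DESeq2 (2.12), without replicate 1 (1.46) or without replicate 2 (2.31). The other, Tnnt1, a troponin of slow skeletal muscle, was higher at 93.1, 71.5 and 64.9 against 4.25, 4.63 and 4.08 (4.23 ± 0.23), and 1 of the 261 members had a UMI of any of 6 myogenic genes such as Myod1. Mki67, a gene of dividing cells, was at 62.1, 82.2 and 133 against 51.8, 49.3 and 61.8, and the median over 17 cell division genes was 0.32.

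**Figure D2:**
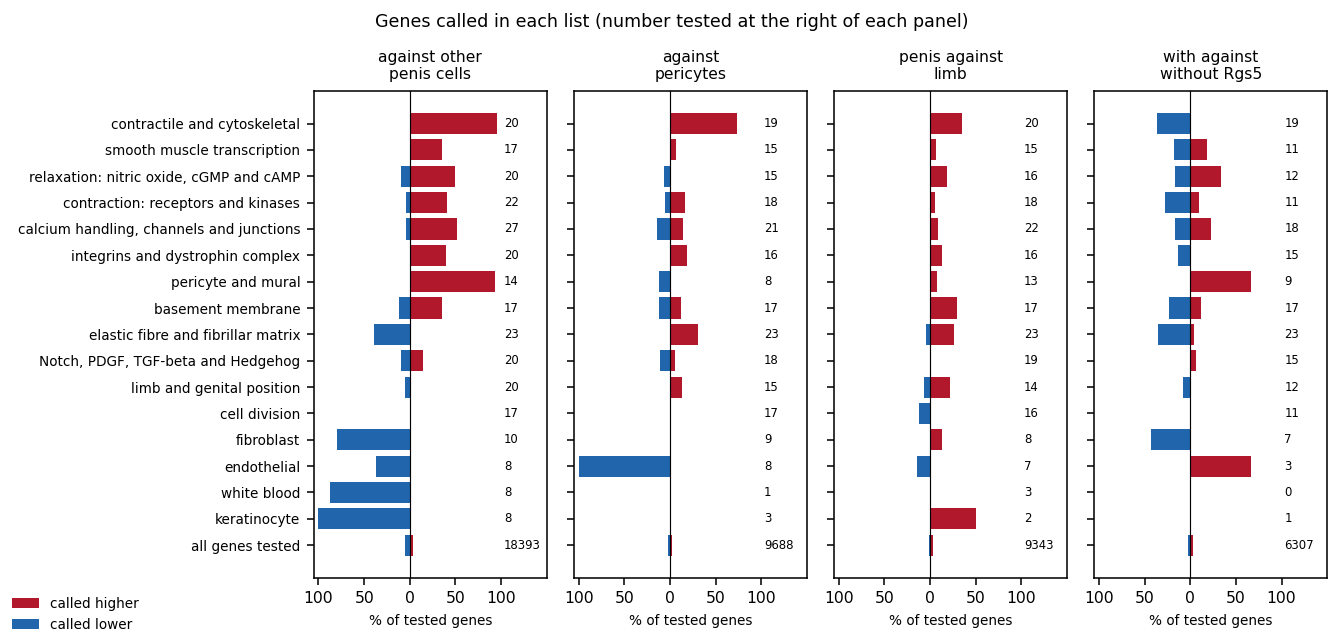
Share of the tested genes of each list called higher (right of 0) or lower (left of 0) in 4 comparisons, in percent of tested genes; the number tested stands at the right of each panel and all genes are in the bottom row. The contractile list had 19 of 20 genes higher against other penis cells and 14 of 19 higher against pericytes, and the 8 endothelial genes were all lower against pericytes.

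The members were next set against pericytes of the same libraries. Pericytes were kept cells that were not members, with at least 2 UMIs of Rgs5 and a UMI of 2 or more of Notch3, Kcnj8, Abcc9, Higd1b and Cspg4, and numbered 70, 87 and 99. Of the 261 members, 130 met this pericyte rule too. With the genes of both rules left out, 200 of 9688 genes were called higher in the members (2.06%) and 226 lower (2.33%), and the median was -0.01. DESeq2 called 124 and 112, and 356 were lower without the filter on low counts. The contractile list had 14 of 19 genes called higher, 0 lower and a median of 1.69. Cells that met both rules were counted as members, and pericytes failed the member rule by definition. Genes whose RNA goes with the rule genes thus differ in part through that choice.

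Tagln stood at 2843, 3270.1 and 3366 CPM in the members and 429, 453 and 364 in the pericytes, a log2 fold change of 2.98 ± 0.11 (adjusted p = 2.33e-09). Nexn rose by 2.91 ± 0.18, Tpm2 by 2.37 ± 0.11, Lmod1 by 2.08 ± 0.16, Myl9 by 2.00 ± 0.14 and Tpm1 by 1.87 ± 0.09. Myocd was at 180.3, 206 and 184 in the members against 24.4, 25 and 15.4 in the pericytes (3.20 ± 0.18, adjusted p = 1.35e-07), with no overlap. Pericytes thus held some RNA of each of these genes at a lower level, and among the rule genes the gap was widest on the log scale for Actg2, at 558, 587 and 586 against 9.17, 9.78 and 11.3, and Cnn1, at 331, 363 and 307 against 13.8, 2.17 and 3.07, which is given with no test.

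Receptors and channels split between the sets. Adra1a was at 47.8, 52.3 and 59.6 against 4.58, 0 and 5.12 (4.10 ± 0.43, adjusted p = 2.00e-05), P2rx1 rose by 3.80 ± 0.52 and Ppp1r14a by 1.99 ± 0.16, while the angiotensin receptor Agtr1a was lower in the members, at 0, 5.34 and 1.33 against 27.5, 25 and 20.5 (-3.43 ± 0.58). Kcnma1 rose by 2.69 ± 0.18 and the ryanodine receptor Ryr2 by 2.75 ± 0.28, and Trpc6 was lower at 33.5, 45.9 and 53 against 217, 162 and 140.3 (-1.95 ± 0.21). The subunits of guanylyl cyclase and the kinase Prkg1 were not called. Gucy1a1 was at 313, 337 and 384 against 459.9, 357 and 419 (-0.21 ± 0.12, adjusted p = 0.357), Gucy1b1 had a log2 fold change of -0.32 ± 0.13 and Prkg1 one of 0.14 ± 0.12, and of the 15 relaxation genes tested 0 were called higher and 1 lower, the phosphodiesterase Pde4d (-1.05), which was not called without replicate 1 (-0.99), without replicate 3 (-0.86) or under the stricter rule (-0.91).

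Part of the elastic matrix and adhesion genes were higher in the members than in pericytes. Of 23 elastic and fibrillar genes, 7 were called higher and 0 lower, whereas 0 were higher and 9 lower against all other penis cells, a comparison that shares the member cells. Eln, the elastin gene, was at 805, 910.4 and 966 against 239.9, 237 and 347 (1.76 ± 0.11, adjusted p = 3.13e-07), the microfibril gene Mfap5 rose by 2.32 ± 0.14 and Lox, the enzyme that cross-links elastin and collagen, by 1.92 ± 0.19. Itga8 was at 353, 502 and 349.9 against 77.9, 56.5 and 36.9 (2.89 ± 0.18), and its matrix ligand nephronectin (Npnt) at 225, 180.4 and 298 against 38.2, 86.9 and 69.7 (1.87 ± 0.21). Dmd rose by 2.14 ± 0.19, Sgcd by 1.74 ± 0.19 and Acan by 1.91 ± 0.22, whereas Col18a1 was lower, with a log2 fold change of -1.45 ± 0.18. The basement membrane list had 2 of 17 genes called higher and 2 lower, with a median log2 fold change of -0.30, and summed to 4327 to 4679 CPM in the members and 5786 to 6433 in pericytes. The fibroblast list was at 4775, 4087 and 4869 CPM in the members and 2515, 3008 and 3205 in pericytes, with a median log2 fold change of 0.67 over 9 genes tested, and the part of fibroblast RNA in these differences was not tested.

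Outside the lists the members held more Sbspon, at 143, 118 and 133 against 1.53, 1.09 and 3.07 (6.01 ± 0.30), Pcp4 (4.75 ± 0.22), Fbxl22 (4.72 ± 0.34) and the growth factor Fgf7 (3.23 ± 0.25). Sh3bgr had 2 UMIs in all pericytes and was 83.2 (95% counting interval 22.7 to 692) times higher in the members. The pericyte set carried endothelial RNA, since all 8 endothelial genes were called lower in the members and the list summed to 180.3 to 320.2 CPM in the members and 793 to 1365 in the pericytes, and the part of endothelial RNA in the genes called lower was not tested.

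The members varied widely in Rgs5. In 85 members no UMI of Rgs5 was seen, in 14 there was 1, in 37 there were 2 to 4, in 31 there were 5 to 9 and in 94 there were 10 or more. By library, 31, 24 and 30 members had none and 68, 54 and 40 had 2 or more. The split is thus given by a count in the cell, and Rgs5 itself, at 1663, 1675 and 2113 CPM in the cells with 2 or more, is a description with no test. As the background level, 2.17% ± 1.07 (SD, n = 3) of white blood cells had a UMI of Rgs5, at a median depth of 7992.5 UMIs per cell against 9803 in the members.

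**Figure D3:**
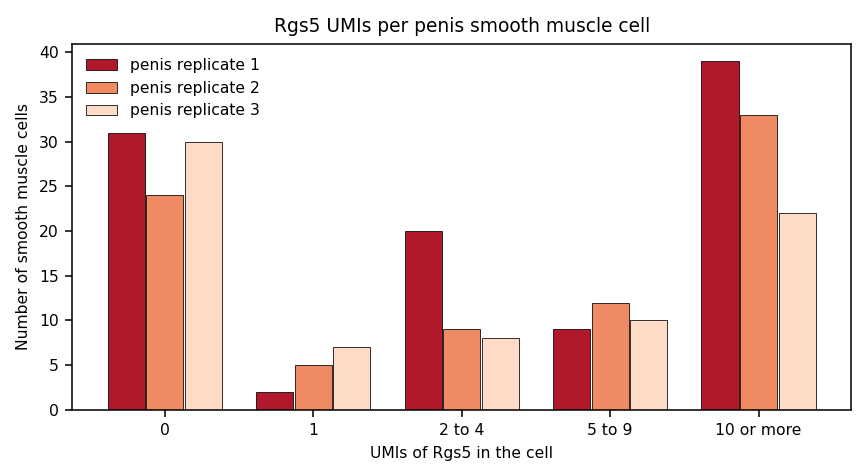
Number of penis smooth muscle cells by their UMIs of Rgs5, 1 bar for each library. The cells gather at 0 UMIs (31, 24 and 30 cells in the 3 libraries) and at 10 or more (39, 33 and 22 cells), with 2 to 7 cells at 1 UMI.

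The 162 members with 2 or more UMIs of Rgs5 were compared with the 85 members without any, within each library and with the rule genes and Rgs5 left out. Of 6307 genes tested, 174 were called higher in the cells with Rgs5 (2.76%) and 186 lower (2.95%), with a median of -0.01. Without replicate 1 the counts fell to 107 and 119, under the stricter rule to 107 and 105 and with DESeq2 to 88 and 116, and without the filter on low counts they were 333 and 301. Cells with Rgs5 held more RNA of mural and guanylyl cyclase genes, and cells without it more RNA of part of the contractile and matrix genes and of Itga8.

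The 4 rule genes are again given with no test. In members without Rgs5, Myh11 stood at 2053, 2847 and 2286 against 821, 1155 and 1141 with it, Cnn1 at 689, 826 and 495 against 157, 215 and 166, Actg2 at 828, 1036 and 926 against 427, 424 and 346 and Acta2 at 7257, 8051 and 7527 against 4822, 4578 and 6442. Every library had the higher level in the cells without Rgs5. Of these cells, 50 of 85 (58.8%) met a stricter rule with 5 or more UMIs of Acta2 and all 3 other genes, against 61 of 162 (37.7%) of the cells with Rgs5. These shares pool the libraries and rest on the rule genes. Median depth was 12244, 10611.5 and 10576.5 UMIs per cell without Rgs5 and 10686.5, 10619 and 8369.5 with it, and its part was not tested. The contractile list had 7 of 19 genes called higher in the cells without Rgs5, 0 called the other way and a median of -0.77. Mylk was at 1270.4, 1522 and 1446 without Rgs5 and 533, 681 and 747 with it (log2 fold change, with minus without, -1.14 ± 0.13, adjusted p = 7.01e-05), and Pdlim3 (-1.13 ± 0.15) went the same way. Tagln and Myl9 did not pass, at -0.28 ± 0.13 and -0.53 ± 0.15. Des and Synpo2 were called, but not without replicate 1 (-1.61 and -1.31), and Tpm2 was called, but not without replicate 2 (-0.995).

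Itga8 (chr2:12106632-12301922, minus strand) and its ligand gene Npnt (chr3:132881745-132950291, minus strand) were both higher in the cells without Rgs5. Itga8 stood at 882, 1610.2 and 689 CPM without and 92.6, 124 and 99.4 with Rgs5 (-3.31 ± 0.19, adjusted p = 4.27e-07), and Npnt at 579, 574 and 619 and 51.5, 44.3 and 61.8 (-3.52 ± 0.18, adjusted p = 2.46e-07). The sets did not overlap for either gene, and in replicate 2, 1 cell held 122 of the 470 Itga8 UMIs of all members. There the 8 members with 2 to 4 UMIs of Acta2 stood at 2703 CPM of Itga8, against 377 in the 75 with 5 or more. In replicates 1 and 3 the members with 2 to 4 stood at 121 and 0, against 358 and 356. Of 23 elastic and fibrillar genes, 8 were called higher without Rgs5 and 1 with it, Tnc, the tenascin C gene (2.20 ± 0.42), which was not called by DESeq2 (2.19) or without replicate 1 (1.57). Dmd (-1.70 ± 0.20), the alpha chains of type IV collagen Col4a5 (-2.24 ± 0.26) and Col4a6 (-2.32 ± 0.29), Lox (-1.89 ± 0.20), Fbln5 (-2.34 ± 0.25) and Mfap4 (-2.35 ± 0.30) were higher without Rgs5 too. Fibroblast RNA moved with this split: the 10 fibroblast genes summed to 6701 to 8265 CPM without Rgs5 and 2256 to 3526 with it, 3 of 7 tested were called higher without it, and 25 of the 85 cells had both Pdgfra and Dcn against 10 of the 162. Col1a1 (-1.71 ± 0.14) and Fbln1 (-1.93 ± 0.24) are among these genes, and the part of fibroblast RNA in the difference was not tested.

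Further genes were higher without Rgs5. Kcnma1, the potassium channel gene, was at 559, 780.0 and 560.0 without and 264, 284 and 231 with Rgs5 (-1.28 ± 0.15), and Ryr2 at 117, 159 and 108 and 25.7, 25.9 and 45.6 (-2.05 ± 0.29). Myocd was at 277, 461 and 277 and 134, 117 and 121 (-1.43 ± 0.20, adjusted p = 3.41e-04); under the stricter rule for members Myocd (-0.77) and Ryr2 (-1.67) were no longer called. Of 11 genes of contractile receptors and kinases, 3 were called higher without Rgs5 and 1 with it. Adra1a was at 96.6, 130.0 and 86.2 without and 24.4, 25.9 and 45.6 with Rgs5 (-1.78 ± 0.31), and the endothelin receptor Ednrb (-2.61 ± 0.44) and Chrm3 (-2.12 ± 0.42) went the same way, whereas Adra2a was at 68.6, 54.5 and 64.6 without and 172, 145 and 169 with it (1.36 ± 0.22). These 4 calls depended on the libraries: without replicate 1, Adra1a (-1.64), Ednrb (-2.37) and Adra2a (1.395) were not called, without replicate 2, Adra1a (-1.48) and Chrm3 (-2.18) were not, and DESeq2 called none of them. Adra1a was also not called under the stricter rule (-1.67). Srd5a2, the enzyme that turns testosterone into dihydrotestosterone, was at 160.1, 96.4 and 46.2 without and 7.72, 1.53 and 0 with Rgs5 (-4.85 ± 0.43, adjusted p = 8.64e-06). The troponins Tnnt1 (-4.55 ± 0.29) and Tnnt2 (-5.42 ± 0.48), Pcp4 (-4.72 ± 0.33), Sbspon (-5.32 ± 0.30), Mctp1 (-5.59 ± 0.35), Sphkap (-4.73 ± 0.46), Slc26a7 (-4.60 ± 0.42) and Nppc, which encodes C-type natriuretic peptide (-4.66 ± 0.39), lay in the same direction. Only 14, 14 and 8 members of replicates 1 to 3 had a UMI of Mctp1, and 1 cell held 31.3%, 42.9% and 36.0% of its UMIs.

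**Figure D4:**
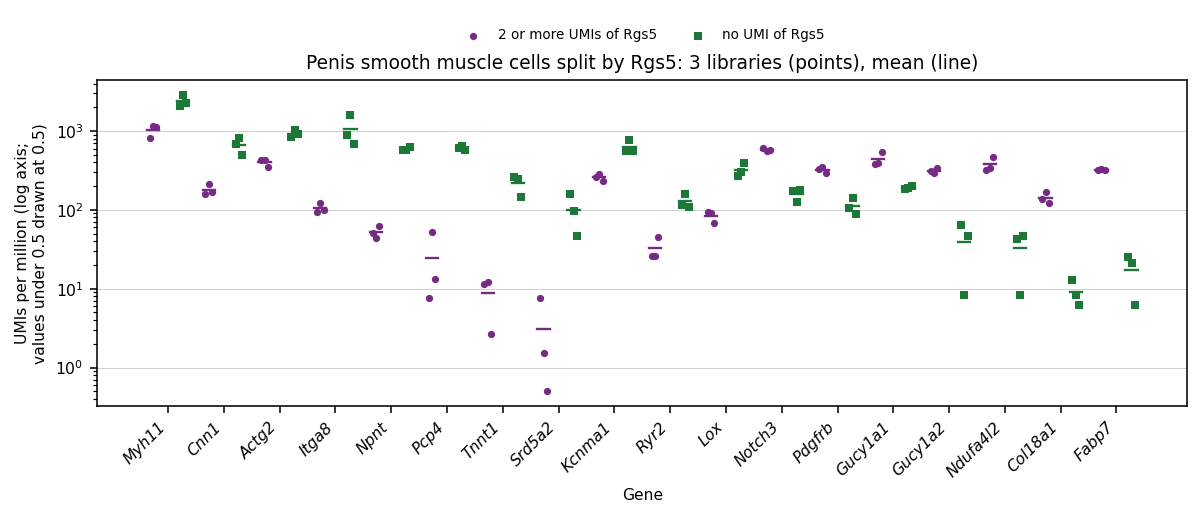
CPM (log axis) of 18 genes in penis smooth muscle cells with 2 or more UMIs of Rgs5 (circles) and with none (squares), each point 1 of 3 libraries and each line their mean. Npnt stood at 574 to 619 without Rgs5 and 44.3 to 61.8 with it, and Col18a1 the other way, at 6.15 to 12.7 without and 124 to 166 with it. Myh11, Cnn1 and Actg2 are genes of the rule that chose the cells.

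Cells with Rgs5 had 6 of 9 mural genes called higher and 0 lower, with a median of 1.52. The full list of 14, which holds Rgs5 itself, summed to 4010 to 4817 CPM with and 763 to 917 without Rgs5. All other kept penis cells stood at 474 to 510. Notch3 stood at 601, 552 and 575 with and 173, 126 and 178 without Rgs5 (1.84 ± 0.16, adjusted p = 8.57e-06), and Ndufa4l2, a mitochondrial protein gene of pericytes, at 324, 339 and 473 and 43.2, 8.39 and 46.2 (3.44 ± 0.27). Abcc9 (1.94 ± 0.23), Epas1 (2.06 ± 0.27) and Pdgfrb (1.52 ± 0.18) rose with them, and the Notch target Heyl (1.63 ± 0.28), which was not called without replicate 1 (1.701) or by DESeq2 (1.66). Of 12 relaxation genes tested, 4 were called higher with Rgs5 and 2 lower. Gucy1a1 was at 385, 397 and 539.7 with and 183, 189 and 203 without Rgs5 (1.17 ± 0.16, adjusted p = 2.73e-04), Gucy1b1 rose by 1.49 ± 0.20, Gucy1a2 by 2.90 ± 0.30 and the phosphodiesterase Pde1a by 1.31 ± 0.16, though Gucy1b1 was not called under the stricter rule (1.34). The lower genes were Mrvi1 (-1.27 ± 0.19) and Pde4d (-1.01 ± 0.17). Mrvi1 was not called without replicate 1 (-1.27) or among cells of 5000 to 20000 UMIs (-0.96), and Pde4d was not called without replicate 1 (-1.10) or 2 (-0.86), without the filter on low counts (-0.94), without the library as a block (-0.997) or by DESeq2 (-1.01).

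The basement membrane genes parted, with 2 of 17 called higher and 4 lower in the cells with Rgs5. Col18a1 was at 136, 166 and 124 with and 12.7, 8.39 and 6.15 without Rgs5 (3.85 ± 0.34) and Lama3 rose by 2.83 ± 0.46. The fatty acid binding protein gene Fabp7 was at 323, 334 and 317 and 25.4, 21 and 6.15 (4.16 ± 0.29), Prph rose by 3.43 ± 0.38, Dgkb by 3.90 ± 0.30 and Ebf2 by 3.85 ± 0.49. The neuropeptide gene Nts was at 0 in all libraries of the cells without Rgs5 and at 161, 35.1 and 258 with it, at least 43.1-fold higher when 3 counts are taken as the upper limit for the whole group, and 1 cell held 40.0%, 40.0% and 30.2% of its UMIs in the 3 libraries. Trpc6 had 2 UMIs in the cells without Rgs5 and was 31.5 (95% counting interval 8.54 to 263) times higher with it, and Gja4 (connexin 37) had 1 and was 46.1 (95% counting interval 8.06 to 1843) times higher, although Gja4 was not called without replicate 1 (4.48). DESeq2 did not call Nts or Trpc6.

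Endothelial RNA moved with this side of the split. The endothelial list summed to 244 to 443 CPM with and 16.8 to 86.2 without Rgs5, and of 3 genes tested 2 were called higher, Esam (3.55 ± 0.43) and Emcn, which had 1 UMI without Rgs5 and was 64.2 (95% counting interval 11.3 to 2554) times higher with it. The filter on low counts left only these 3 of the 8 genes to test, and Emcn passed it through the cells with Rgs5. The count of calls is thus no measure of the list. The dissociation stress list was also higher with Rgs5 in each library, at 7472, 6172 and 7505 CPM against 4683, 3908 and 6951 without. Of its 14 genes tested, 1 was called higher with Rgs5 and 0 lower. The cell division list was lower with Rgs5 in each library, at 560, 684 and 132 CPM against 671, 1489 and 1520 without. Its median log2 fold change was -1.32 over 11 genes tested, of which 0 were called higher and 0 lower. The skeletal muscle list was lower with Rgs5 too, at 10.7 to 29.6 CPM against 148 to 287, and Tnnt1 made up most of the level without Rgs5. The red blood cell list was at 14041, 14571 and 218 CPM with and 11363, 252 and 160.0 without Rgs5. The part of these lists in the other differences was not tested.

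Shares of cells with a UMI were compared after each cell was thinned to 2000 UMIs, with cells below that depth left out (2 of 261 members, 11 of 256 pericytes and 11 of 563 white blood cells that are not members). A UMI of Tagln was expected in 85.6% ± 2.1 (SD, n = 3) of members, 33.4% ± 2.6 of pericytes and 1.82% ± 0.96 of white blood cells, and in 96.7%, 52.8% and 6.62% unthinned. Itga8 was seen in 44.7% ± 5.73 of members without Rgs5 and 17.1% ± 2.63 of members with it, against 1.64% ± 0.369 of white blood cells. Gucy1a1 went the other way, with 31.1% ± 1.27 without and 56.8% ± 7.63 with Rgs5, against 0.606% ± 0.183 of white blood cells. Pcp4 was in 28.9% ± 3.52 of members without Rgs5 and 1.95% ± 0.757 with it, against 0.214% ± 0.0493 of white blood cells, and unthinned in 37.7%, 4.16% and 0.723%. The unthinned shares were 57.9%, 48.1% and 6.05% for Itga8 and 69.2%, 95.5% and 1.77% for Gucy1a1. In replicate 3 the unthinned share of Itga8 went the other way, at 57.5% with and 50% without Rgs5. The cells without Rgs5 thus included both cells with and cells without a UMI of Pcp4 at this depth.

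The same 4-gene rule found few cells in the embryonic limbs. After cells with a UMI of 6 myogenic genes were left out, 23 forelimb cells and 9 hindlimb cells remained, with 383136 and 197140 UMIs, and 260 penis members entered this comparison. Of the 9 hindlimb cells, 5 met the stricter rule and held 139892 of the 197140 UMIs, at a median of 28612 per cell. The 2 limb libraries were taken as replicates of limb. The study's methods give a joint count of male embryos for forelimbs and hindlimbs, and do not say which embryos are in which library. If both libraries hold the same embryos, the p-values of this comparison and of the interaction test given last are too small. Age, organ and preparation cannot be told apart, and limb cells were kept under looser limits on genes and mitochondrial UMIs. This comparison also cannot tell a difference of smooth muscle cells from one that the other cells of the organs share. Only the interaction test given last sets the other cells beside them. The rule genes, with no test, stood at 4121 and 5341 (forelimb and hindlimb) for Acta2 against 5579, 5511 and 6630.2 in the penis, 269 and 401 against 1221, 1585 and 1596 for Myh11, 70.5 and 96.4 against 333, 363 and 307 for Cnn1 and 334 and 528 against 545, 587 and 586 for Actg2. These genes chose the cells, and for Actg2 the hindlimb (528) and penis replicate 1 (545) lay close together.

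Of 9343 genes tested, 272 were called higher in the penis cells (2.91%) and 150 lower (1.61%), with a median of 0.00. Leaving out a penis library gave 164, 120 or 143 higher and 75, 52 or 65 lower for replicates 1, 2 and 3, and penis cells of 5000 to 20000 UMIs against the 13 forelimb and 2 hindlimb cells in that range gave 130 and 56. The stricter rule gave 106 and 69, and no filter on low counts 578 and 248. With 1 limb library left out, the limb arm is a single library and is assumed to vary like the penis libraries. The contractile list had 7 of 20 genes called higher in the penis, 0 lower and a median of 1.06. Pdlim3 was at 466, 402 and 388 in the penis libraries and 28.7 and 5.07 in forelimb and hindlimb (4.40 ± 0.36, adjusted p = 1.20e-05), and Des at 221, 141 and 223 and 28.7 and 0 (3.42 ± 0.48, adjusted p = 6.42e-04). The other penis cells also held more Pdlim3 than these limb cells, as given in the first comparison, where Pdlim3 was not called. Synpo2 (2.68 ± 0.29), Lmod1 (2.10 ± 0.22) and Mylk (1.64 ± 0.21) rose with them. Tagln (0.90 ± 0.18) and Myl9 (0.85 ± 0.18) were under the size limit, and Myocd, at 179, 206 and 184 against 47 and 142, was not called (1.24 ± 0.32, adjusted p = 0.0248), though it was without the hindlimb library (2.03), without the filter on low counts (1.33) and with cells holding a myogenic UMI kept (1.33). Dissociation stress genes had 3 of 14 called higher in the penis and summed to 6281 to 7317 CPM in the 261 members against 4233 in the forelimb and 5407 in the hindlimb cells. Cell division genes had 2 of 16 called lower in the penis (median -1.10) and summed to 604 to 886 against 1676 and 1131. Endothelial genes had 1 of 7 called lower (median -0.99) and summed to 180.3 to 320.2 against 736 and 208. Fibroblast genes had 1 of 8 called higher (median 0.49) and summed to 4087 to 4869 against 3727 and 1679. The part of these lists in the other differences was not tested.

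Kcnma1 was at 357, 427 and 387 CPM in the penis and 23.5 and 10.1 in the limbs (4.41 ± 0.33, adjusted p = 4.83e-06), and Itga8 at 356, 502 and 349.9 and 33.9 and 35.5 (3.59 ± 0.32, adjusted p = 1.85e-05). Npnt had 3 UMIs in the limb cells and was 44.5 (95% counting interval 15.2 to 217) times higher in the penis. The phosphodiesterase gene Pde1a rose by 3.34 ± 0.26, the myosin phosphatase subunit Ppp1r12b by 1.70 ± 0.24, the alpha-2A adrenoceptor Adra2a by 2.43 ± 0.32, the proteoglycan Hspg2 by 1.96 ± 0.26 and Mfap5 by 2.72 ± 0.37. Adra2a was not called among cells of 5000 to 20000 UMIs (2.56), nor Mfap5 under the stricter rule (2.24). Fibronectin (Fn1) was lower in the penis at 218, 231 and 264 against 569 and 1106 (-1.73 ± 0.23), and was not called without penis replicate 2 (-1.71). Gucy1a1 (0.32 ± 0.20), Rgs5 (0.06 ± 0.20) and Adra1a (1.14 ± 0.42) did not pass.

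Of 14 transcription factor genes of limb and genital position, 3 were called higher in the penis and 1 lower. Isl1, a homeobox gene of the genital tubercle and hindlimb field, was at 231, 223 and 258 in the penis and had 1 UMI in the limb cells, a ratio of 137 (95% counting interval 24.4 to 5405). Tbx18 was lower in the penis at 18.6, 9.61 and 13.3 against 67.9 and 107 (-2.49 ± 0.36), a call lost among cells of 5000 to 20000 UMIs (-1.40). The distal Hox genes Hoxd13, at 59.2, 39.5 and 49 against 20.9 and 5.07, and Hoxa13, at 47.3, 39.5 and 59.6 against 13.1 and 15.2, were not called (adjusted p = 0.0312 and 0.015). Without the filter on low counts both were called (1.82 and 1.93), and Hoxa13 was also called with cells holding a myogenic UMI kept (1.90). Tbx4, a gene of the hindlimb and genital fields, had a log2 fold change of 2.23 ± 0.49 and was not called in the full comparison, but was without the hindlimb library (3.61), without the filter on low counts (2.33), among cells of 5000 to 20000 UMIs (8.08) and with cells holding a myogenic UMI kept (2.28). Pitx1, a hindlimb gene, had 1 UMI in the limb cells, a ratio of 20.8 (95% counting interval 3.65 to 829), and Tbx3 was at 78.6, 90.7 and 107 against 15.7 and 30.4 (2.17 ± 0.36). Neither held when libraries were left out: Pitx1 was not called without penis replicate 1 (4.07), 2 (4.33) or 3 (4.34) or without the forelimb library (2.89), and Tbx3 was not without penis replicate 2 (2.17) or 3 (2.08) or without the forelimb library (1.70). Under the stricter rule neither was called (3.31 and 2.57), and Pitx1 was also not called by DESeq2 (4.34) or among cells of 5000 to 20000 UMIs (7.29).

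Outside the lists, Csmd1 was at 745, 773 and 694 in the penis and 7.83 and 10.1 in the limbs (6.43 ± 0.34). Pcp4, Enpp2 (autotaxin), Grin3a and Sbspon had 1 or 2 UMIs in the limb cells and were higher in the penis by ratios of 129 (95% counting interval 23.1 to 5102), 159 (95% counting interval 44 to 1315), 94.5 (95% counting interval 16.9 to 3739) and 76.9 (95% counting interval 13.7 to 3045). Eya1 was at 0 in both limb libraries and at 179, 207 and 193 in the penis, at least 37.1-fold higher with 3 counts as the upper limit for both limb libraries. H19, an RNA known for high levels in fetal tissue, was at 838 and 964 in the limbs and 48.2, 34.2 and 18.6 in the penis (-4.62 ± 0.27, adjusted p = 8.65e-07), Igf2bp1 had a log2 fold change of -4.00 ± 0.31, not called among cells of 5000 to 20000 UMIs (-2.37), and Hmga2, with 2 UMIs in all penis members, was 163 (95% counting interval 43.5 to 1378) times higher in the limbs.

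**Figure D5:**
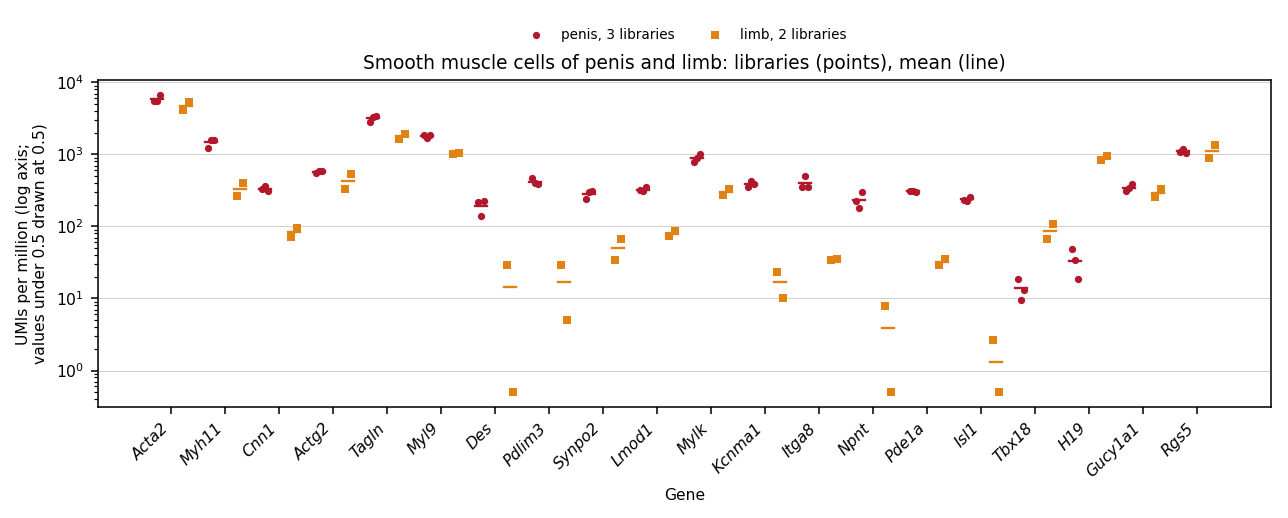
CPM (log axis) of 20 genes in smooth muscle cells of 3 penis libraries (circles) and 2 limb libraries (squares), with the mean of each as a line. Kcnma1 stood at 357 to 427 in the penis and at 23.5 and 10.1 in the limbs, H19 the other way, at 18.6 to 48.2 and at 838 and 964, and Rgs5 overlapped. Values under 0.5 are drawn at 0.5. Acta2, Myh11, Cnn1 and Actg2 chose the cells, and the limb points come from 23 and 9 cells.

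Whether the step from other cells to smooth muscle cells differed between penis and limb was tested with an interaction term over all 5 libraries. Of 19824 genes, 255 had a larger step in the penis (1.29%) and 175 a smaller one (0.883%), with a median of 0.17. DESeq2 gave 99 and 94, cells of 5000 to 20000 UMIs 75 and 34, and the stricter rule 166 larger steps. The contractile list had 6 of 20 genes called with a larger step and 0 with a smaller one. Lists of other cells and states were called at like or higher shares: 4 of 6 red blood cell genes, 3 of 5 skeletal muscle genes, 4 of 10 cartilage and bone genes and 4 of 17 cell division genes had a larger step, and 6 of 8 endothelial genes a smaller one. The other cells of the 2 organs differ in kind, so the step depends on both sides. Cells with a myogenic UMI were left out of the smooth muscle cells but kept among the other cells. The part of that choice in the skeletal muscle list was not tested. For Itga8, the members of the penis stood at 356, 502 and 349.9 and the other penis cells at 30.7, 29 and 31.3, while limb smooth muscle cells stood at 33.9 and 35.5 and the other limb cells at 39.7 and 35.9.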

How the data were processed

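Single-cell libraries were made from the dissociated tissue with 10x 3' chemistry, and per the labels the authors used Cell Ranger 7.0.0 and mm10. For each cell barcode the deposited files give whole UMI counts of every gene, not normalized. Whether intron reads were counted is not stated.

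Penis cells were kept with 500 to 6000 genes, at most 5% mitochondrial UMIs and log10 genes per log10 UMI of at least 0.8. Limb limits were 100 to 9000 (forelimb) or 9500 (hindlimb) genes and 10%. UMIs were summed over the cells of a set in each library, and edgeR 4.0.16 (R 4.3.3; TMM, filterByExpr, quasi-likelihood test, library as a block within penis) was fitted on all genes. The same library gives both sets, which is why the library is the block. The study names 3 males, and that each of the 3 penis libraries is 1 male is assumed. Which libraries share a litter is not stated. DESeq2 1.42.0, other size factors, filters, rules, depths and left-out libraries were alternatives, and Scrublet (scanpy 1.11.5) was run for doublets. The code was tested on simulated data.

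The members and lists were chosen with earlier results of these data known. Genes were named by rule: per list, at most 8 called genes with the largest change at 20 or more CPM (a scale of 1000000), with central genes of the list, and outside the lists at most 8 in each direction at 50 or more that went the same way in every library. Nr3c2, Pde4d, Pitx1, Tbx3, Ppp1r12b, Ckm, Adra2a in the limb comparison, and Adra1a, Adra2a, Ednrb, Chrm3, Heyl, Mrvi1 and Tnc in the Rgs5 split were added after their values were seen. Some genes that this rule would pick are not reported here. Promoters are RefSeq's (GRCm38.p6) and gene positions GENCODE M21's.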

Additional observations from a re-analysis of the deposited data

Results flagged for a closer look

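The step from other cells to smooth muscle cells differed between penis and limb by edgeR's interaction test for 12 genes named here, given as the log2 step in the penis minus the step in the limb. It was larger in the penis for Kcnma1 (4.03), Itga8 (4.02), Lmod1 (1.81), Nexn (1.81) and Tpm2 (1.62). Kcnma1 stood at 357, 427 and 387 CPM in penis smooth muscle cells and 96.6, 92.5 and 104 in the other penis cells, and at 23.5 and 10.1 in limb smooth muscle cells and 64.5 and 76.9 in the other limb cells, so limb smooth muscle cells lay below the other limb cells. It was also larger for Fbxl22 (5.53), Sbspon (6.27), Grin3a (6.84) and Tnnt1 (7.64). For Tnnt1, a troponin of slow skeletal muscle, the other limb cells stood at 108 and 93.7 and the limb smooth muscle cells at 10.4 and 10.1. Cells with a UMI of the 6 myogenic genes were left out of the smooth muscle cells but kept among the other cells. The part of that choice in the Tnnt1 step was not tested, and no alternative that treated such cells otherwise was run for it.

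The step was smaller in the penis for Rgs5 (-2.03), Cox4i2 (-2.34) and Eln (-1.88). Rgs5 overlapped between the smooth muscle cells of both organs, at 1089, 1177 and 1052 in the penis and 895 and 1339 in the limbs, and differed among the other cells, at 34.1, 36 and 54.2 and 9.02 and 8.36. Eln was at 1262, 1209 and 1199 in the other penis cells, above the penis smooth muscle cells at 805, 910.4 and 966, and at 136 and 119 in the other limb cells, below the limb smooth muscle cells at 472 and 294. These 12 calls held under each of the 12 alternatives that were run for this test. The limb side rests on 23 and 9 cells. No group had the 4 samples that a check for a far-off sample needs.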

How the results depend on the processing

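Of the genes named, 69 of 71 called against other penis cells and 33 of 34 against pericytes kept their call under every alternative run. Against limb 21 of 29 did, and between members with and without Rgs5 39 of 57, counting only alternatives in which a gene was tested. In these 2 comparisons some genes were not tested under some alternatives. None changed direction. DESeq2 gave 632 genes lower against other penis cells, 124 higher and 112 lower against pericytes, 99 and 94 for the penis minus limb step, and 88 and 116 for the Rgs5 split. Without the filter on low counts, 356 genes were lower against pericytes, 578 higher and 248 lower against limb, and 333 and 301 were called for the split. The stricter rule gave 106 and 69 against limb, 166 larger steps, 107 and 105 for the split, and a share of members of 0.598%. Cells of 5000 to 20000 UMIs gave 130 and 56 against limb, and 75 and 34 for the step. Leaving out 1 library gave 585 to 622 higher and 824 to 900 lower against other penis cells, 177 to 243 and 181 to 268 against pericytes, 120 to 295 and 52 to 172 against limb, 184 to 241 and 128 to 154 for the step, 107 to 194 and 119 to 204 for the split, and a share of 1.26 to 1.42%. The cause was not tested. The share of members with a UMI rose with depth: thinned to 4000 UMIs it was 93.5% for Tagln, 60.7% for Rgs5, 35.4% for Itga8, 67.8% for Gucy1a1, 36.0% for Des and 14.01% for Pcp4, and unthinned 96.7%, 67.1%, 50.3%, 86.7%, 52.2% and 15.9%, from 85.6%, 52.5%, 25.6%, 47.8%, 22.4% and 11.1% at 2000. Without the replicate block, counts were 699 and 987 against other penis cells, 201 and 215 against pericytes, and 168 and 175 for the split; Dcn, Chrm3 and Pde4d in the split were no longer called. No paired analysis of penis and limb was possible, because they come from different animals, of postnatal day 6 and embryonic day 15. Scrublet called 22, 2 and 54 penis cells, none of them members, and had not worked in the first 2 libraries, so members with a marker pair of another cell type, other than the Pdgfra and Dcn pair, were left out as an alternative chosen after seeing the data, which kept 98, 78 and 71 of the 101, 83 and 77 members.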
